A study of Mus musculus with 4 samples.

Results

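The desmosome genes of keratinocytes were described here as 10 listed genes, the desmogleins Dsg1a, Dsg1b, Dsg2 and Dsg3, the desmocollins Dsc1, Dsc2 and Dsc3, and the plaque genes Dsp, Jup and Pkp1. A member was measured by the probe set whose platform annotation holds its symbol alone, or by the brightest such probe set where there are several. That left 8 of the 10 members, among 19938 genes measured in this way and 35556 probe sets in all. Dsg1a had no probe set of its own, since probe set 10454113 carries 3 symbols, those of Dsg1a, Dsg1b and Dsg1c. No probe set here carried the symbol of Dsc1. Each of the other 8 members had 1 probe set.

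Desmosomes are the spot-like junctions that hold keratinocytes together. Desmogleins and desmocollins are transmembrane cadherins that bind their counterparts on the neighbouring cell. Inside the cell their tails bind plakoglobin, the product of Jup, and plakophilins such as Pkp1, and these bind desmoplakin, the product of Dsp, which anchors the keratin filaments. In stratified epidermis Dsg3, Dsc3 and the more widely expressed Dsg2 and Dsc2 are known mainly from the lower layers and desmoglein 1, Dsc1 and Pkp1 mainly from the upper ones.

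The arrays compared 2 transgenic mouse lines in which the K14 promoter, active in basal keratinocytes, drives either noggin, a secreted antagonist of bone morphogenetic proteins (BMPs), or BMP4, one of those proteins. Strips of epidermis, 8 to 10 per animal, were laser captured from the hairless hindpaw, and RNA from 3 animals was pooled for each array, which gave 2 noggin arrays and 2 BMP4 arrays from 6 animals per line. Strain, age, and the number of founder lines are not given in the sources used here. No non-transgenic skin was analysed here, so each value below sets one transgenic line against the other and no baseline is available.

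Differences are given as noggin minus BMP4 in log2 units of probe set intensity, with errors as SDs of 2 pools, and tests are limma's with Benjamini-Hochberg adjustment over all 35556 probe sets. The 4 arrays had medians between 6.04 and 6.06. All 11 measured keratinocyte markers of a list of 12 had mean log2 values between 10.51 and 13.35, above the lower quartile of 4.73 over all probe sets. All 13 skeletal muscle markers also lay above that quartile, at up to 10.44. Across genes the BMP4 replicate 1 array correlated least with the rest, at r between 0.985 and 0.989, against 0.992 to 0.993 among the other arrays. Nog had log2 values of 5.92 and 5.99 in noggin pools and 6.13 and 6.04 in BMP4 pools, and Bmp4 had 7.77 and 7.86 in noggin pools and 8.22 and 8.03 in BMP4 pools. Neither passed the threshold (limma, adjusted p = 0.946 for Nog and 0.874 for Bmp4), and whether these probe sets cover the transgenes' transcripts is not known, so they do not check the labels.

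None of the 8 measured desmosome genes passed the threshold of 0.05 between noggin and BMP4 epidermis. Among the cadherins, Dsg3, Dsc2 and Dsc3 had both noggin pools below both BMP4 pools, where 17.9% of all genes lay below in this way and 15.7% above. Their BMP4 means were 1.29-fold, 1.44-fold and 1.14-fold higher, and the BMP4 replicate 1 pool was the highest for each. The plaque genes Dsp, Jup and Pkp1 stayed within 0.16 log2 units over all 4 arrays. Limma's adjusted p lay between 0.913 and 0.999 for the 8 genes, 0% of all probe sets passed, and 0 of the 8 had an unadjusted p below 0.05, against 4.28% of all genes and 5.61% of all probe sets. With 2 pools against 2, the smallest two-sided p that an exact permutation test of 1 gene can reach is 0.333. In pooled tissue RNA, fewer cells of a type and less RNA per cell cannot be told apart.

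**Figure D1:**
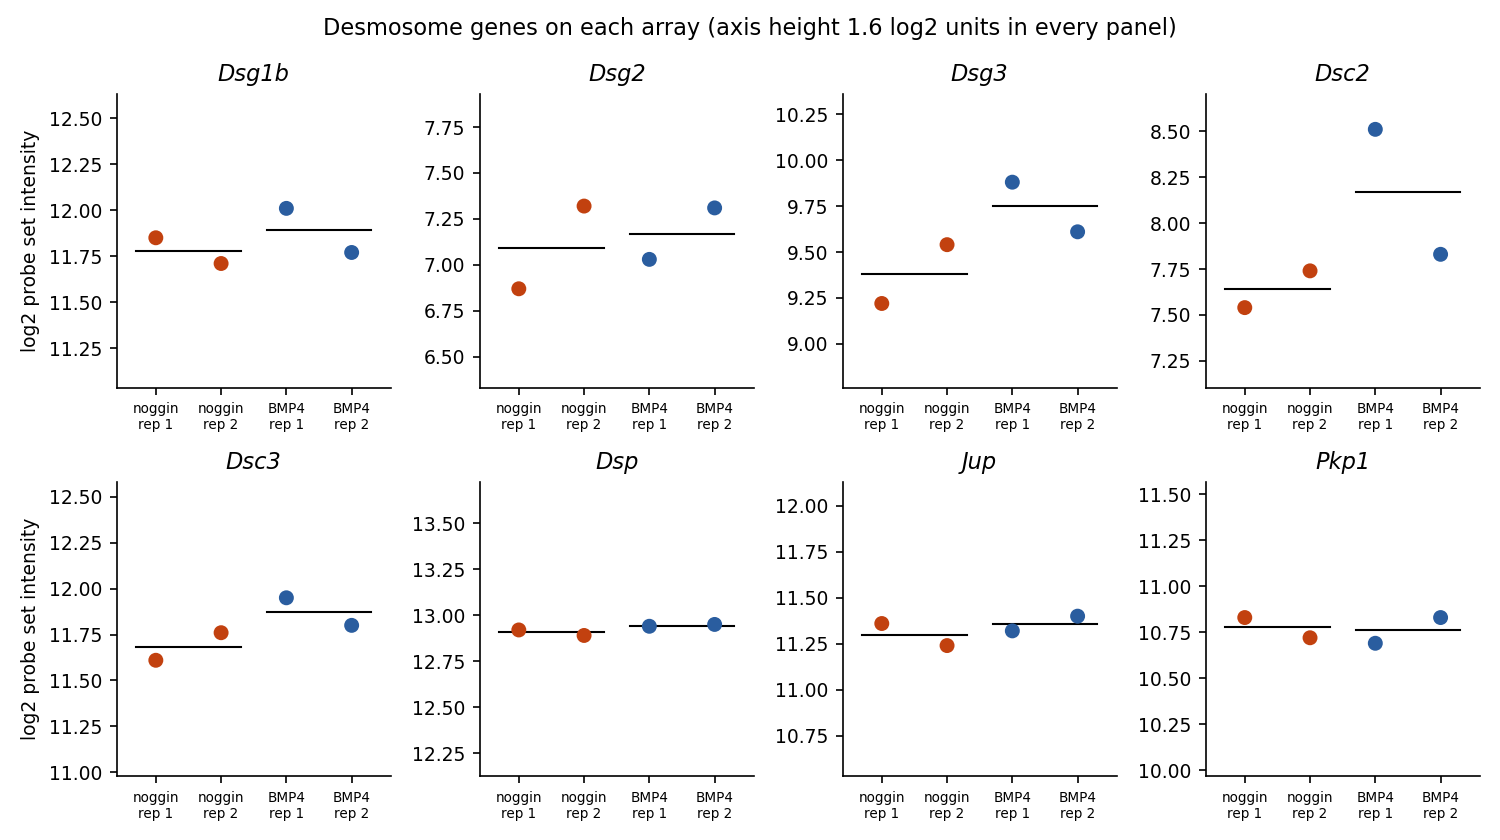
Log2 probe set intensity (vertical axis, 1.6 log2 units high in each panel) of the 8 measured desmosome genes on each array, noggin pools in red on the left and BMP4 pools in blue on the right, with a black line at each mean of 2 pools. Dsc2 spans the widest range, up to 8.51 in BMP4 replicate 1, and Dsp the narrowest, from 12.89 to 12.95.

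Among the desmocollins, Dsc2, the desmocollin found in nearly all epithelia, had log2 values of 7.54 and 7.74 in noggin pools and 8.51 and 7.83 in BMP4 pools. BMP4 replicate 1 stood apart from the other 3 arrays, and BMP4 replicate 2 was close to noggin replicate 2. The noggin mean was 7.64 ± 0.15 (SD, n = 2) and the BMP4 mean 8.17 ± 0.48 (SD, n = 2), with noggin minus BMP4 at -0.53 (95% interval -1.25 to 0.20, limma adjusted p = 0.931). Without BMP4 replicate 1 the difference was -0.19, and without BMP4 replicate 2 it was -0.87.

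Dsc3, the desmocollin of basal and lower spinous cells, had log2 values of 11.61 and 11.76 in noggin pools and 11.95 and 11.80 in BMP4 pools. The groups did not overlap, but noggin replicate 2 and BMP4 replicate 2 were nearly level. Noggin minus BMP4 came to -0.19 (95% interval -0.50 to 0.12, limma adjusted p = 0.939), and it was -0.11 without BMP4 replicate 1 and -0.12 without noggin replicate 1.

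Among the desmogleins, Dsg3, the basal desmoglein that is the target of autoantibodies in human pemphigus vulgaris, had log2 values of 9.22 and 9.54 in noggin pools and 9.88 and 9.61 in BMP4 pools. Noggin replicate 1 was the lowest array and BMP4 replicate 1 the highest, with both replicate 2 pools close together between them. The noggin mean was 9.38 ± 0.23 (SD, n = 2) and the BMP4 mean 9.75 ± 0.19 (SD, n = 2), with noggin minus BMP4 at -0.36 (95% interval -0.83 to 0.10, limma adjusted p = 0.913). Leaving out noggin replicate 1 gave -0.20, and leaving out BMP4 replicate 1 gave -0.23.

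Dsg1b, one of 3 mouse copies of desmoglein 1, had log2 values of 11.85 and 11.71 in noggin pools and 12.01 and 11.77 in BMP4 pools. The groups overlapped, and BMP4 replicate 1 was again the highest array. Noggin minus BMP4 came to -0.11 (95% interval -0.46 to 0.24, limma adjusted p = 0.973), with a change of sign to 0.00575 when BMP4 replicate 1 was left out. Probe set 10454113, which stands for no single gene of the 3 copies, had 12.91 and 12.96 in noggin pools and 13.01 and 12.91 in BMP4 pools. The copies are closely similar, so probes could bind more than one of them, and the Dsg1b value is uncertain to that extent.

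Dsg2, the desmoglein of simple epithelia and heart that stratified epidermis also expresses, had log2 values of 6.87 and 7.32 in noggin pools and 7.03 and 7.31 in BMP4 pools. Both replicate 2 pools lay above both replicate 1 pools, whichever the line. Noggin minus BMP4 came to -0.07 (95% interval -0.63 to 0.49, limma adjusted p = 0.995), and it turned positive without noggin replicate 1, at 0.15, and without BMP4 replicate 2, at 0.07.

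In the GRCm38.p6 gene table the desmosomal cadherins form a single block of 9 neighbouring protein-coding genes on chromosome 18, in the order Dsc3, Dsc2, Dsc1, Dsg1c, Dsg1a, Dsg1b, Dsg4, Dsg3 and Dsg2, with no other protein-coding gene between them. Dsg2, at one end, had its highest value in noggin replicate 2, whereas its neighbour Dsg3 had its highest value in BMP4 replicate 1, as did Dsg1b, Dsc2 and Dsc3.

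The plaque genes had smaller ranges over the arrays. Dsp, whose protein links the junction to keratin filaments, had log2 values of 12.92 and 12.89 in noggin pools and 12.94 and 12.95 in BMP4 pools. Both noggin pools lay below both BMP4 pools, yet the whole range over the 4 arrays was only 0.0524. Noggin minus BMP4 came to -0.03 (95% interval -0.27 to 0.20, limma adjusted p = 0.993).

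Jup, whose product plakoglobin is shared by desmosomes and adherens junctions, had log2 values of 11.36 and 11.24 in noggin pools and 11.32 and 11.40 in BMP4 pools. The groups overlapped, and noggin minus BMP4 came to -0.06 (95% interval -0.33 to 0.21, limma adjusted p = 0.987). Pkp1, the plakophilin of the upper epidermis, had 10.83 and 10.72 in noggin pools and 10.69 and 10.83 in BMP4 pools. Pkp1 was the only measured member with a higher mean in noggin, by 0.02 (95% interval -0.27 to 0.31, limma adjusted p = 0.999), a sign that turned under 2 other normalizations and without noggin replicate 1 or BMP4 replicate 1, at -0.03 and -0.05. These intervals do not show that the plaque genes were equal in the lines, but each of the 3 ends within 0.33 log2 units of 0 on either side.

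**Figure D2:**
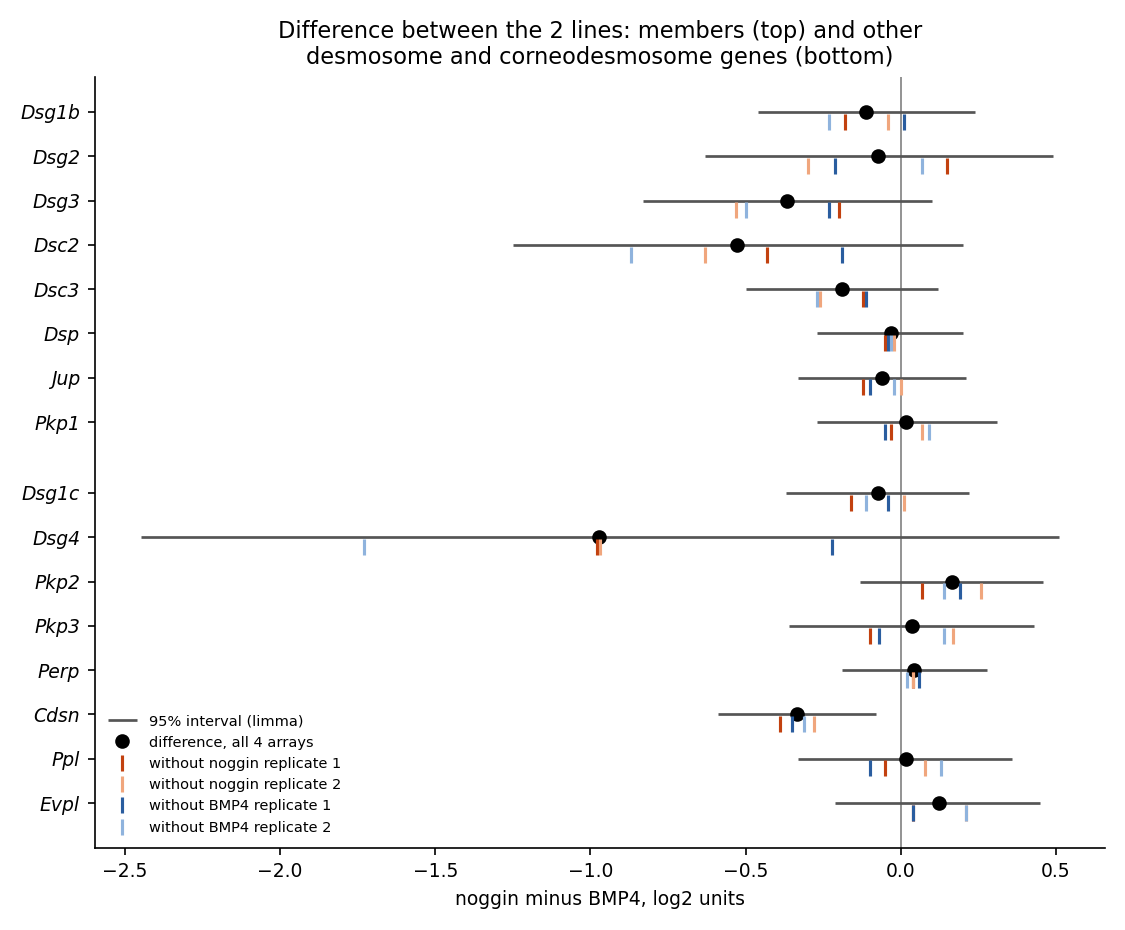
Difference of noggin minus BMP4 in log2 units (horizontal axis) for the 8 members above and 8 further desmosome and corneodesmosome genes below. Black points are differences over 4 arrays, horizontal lines limma's 95% intervals, and coloured ticks the difference with 1 array left out. The Cdsn interval, from -0.59 to -0.08, is the only one of the 16 that does not reach 0 before adjustment. Over all genes, 4.28% had an unadjusted p below 0.05 in the same limma fit.

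Over the 8 measured members, 7 had a lower mean in noggin, against 52.2% of all genes. In 4 of the 8, Dsg3, Dsc2, Dsc3 and Dsp, both noggin pools lay below both BMP4 pools, against 17.9% of all genes, and in 0 of the 8 both lay above, against 15.7%. The median difference was -0.09 over the 8 members and -0.01 over all genes. For single members, 2.59% of all genes had a larger absolute difference than Dsc2, 5.48% a larger one than Dsg3 and 20.1% a larger one than Dsc3. The range over the 4 arrays had a median of 0.447 log2 units among the 5 cadherins and 0.142 among the 3 plaque genes, against 0.255 over all genes.

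**Figure D3:**
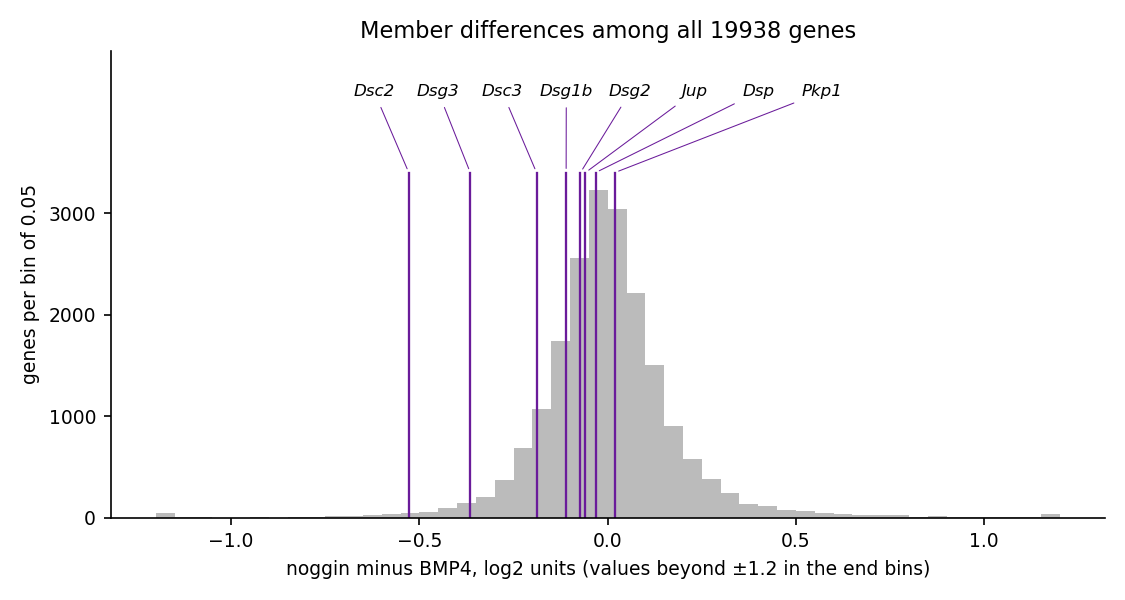
Number of genes (vertical axis) per bin of 0.05 log2 units of the noggin minus BMP4 difference (horizontal axis) for 19938 genes in grey, with genes beyond 1.2 in either direction in the end bins and a purple line at each of the 8 measured desmosome genes. Dsc2 at -0.53 and Dsg3 at -0.36 lie in the lower tail, and Dsp, Jup and Pkp1 near the centre.

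Members of the lower and upper layers were set side by side as each gene's deviation from its own mean over the 4 arrays. Dsg2, Dsg3, Dsc2 and Dsc3, the 4 lower-layer genes, deviated on average by -0.28 in noggin replicate 1 and -0.0047 in noggin replicate 2, and by 0.25 in BMP4 replicate 1 and 0.04 in BMP4 replicate 2. Dsg1b and Pkp1, the 2 measured genes of the upper-layer list of 4, deviated by 0.04 and -0.08 in noggin pools and by 0.05 and 0.00 in BMP4 pools. The spread between pools of this lower-layer mean thus lay mostly in the replicate 1 arrays, but its genes differed. In BMP4 replicate 1 Dsg2 stood at -0.105, against 0.605 for Dsc2, 0.313 for Dsg3 and 0.172 for Dsc3. Dsg2 stood at 0.188 in noggin replicate 2 and 0.177 in BMP4 replicate 2. Upper minus lower came to 0.12 ± 0.29 (SD, n = 2) for noggin pools and -0.12 ± 0.11 (SD, n = 2) for BMP4 pools. Their difference of 0.24 shrank to 0.04 when noggin replicate 1 was left out and grew to 0.44 when noggin replicate 2 was left out. No test was made of this score.

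BMP4 replicate 1 was the highest of the 4 arrays for 4 of the 8 members, Dsg1b, Dsg3, Dsc2 and Dsc3, against 24.2% of all genes. Noggin replicate 1 was the lowest for 4 of the 8, Dsg2, Dsg3, Dsc2 and Dsc3, against 21.2% of all genes. Markers of other structures also stood apart in BMP4 replicate 1. It was the highest array for 7 of 10 measured hair shaft and matrix markers, and their summed linear intensity was 679 and 594 in noggin pools against 4098 and 1248 in BMP4 pools, with 1 of the 10 below the lower quartile of all probe sets. Krt84, a hair-type keratin, had log2 values of 5.47 and 5.71 in noggin pools and 11.60 and 9.09 in BMP4 pools. It made up 3095 and 544 of the BMP4 sums, and the other 9 hair markers summed to 635 and 541 in noggin pools and 1003 and 704 in BMP4 pools. Noggin replicate 1 was the lowest array for 1 of the 10 hair markers and noggin replicate 2 for 8, where noggin replicate 2 was the lowest for 6503 of all 19938 genes. BMP4 replicate 1 was the lowest array for 10 of 10 Langerhans cell and macrophage markers, whose summed intensity was 3679 and 4090 in noggin pools and 1440 and 3018 in BMP4 pools. It was also the lowest for 11 of 13 skeletal muscle markers, with sums of 8980 and 4630 in noggin pools and 2575 and 5868 in BMP4 pools, and for 7 of 7 fibroblast markers, with sums of 3810 and 3500 in noggin pools and 3217 and 4443 in BMP4 pools. Over all 19938 genes, BMP4 replicate 1 was the lowest array for 5158. None of these 3 lists had a marker below that quartile. Noggin replicate 1 was the highest array for 12 of the 13 muscle markers, against 5469 of all 19938 genes. It was the highest for 3 of the 10 Langerhans cell and macrophage markers and 0 of the 7 fibroblast markers. For the fibroblast markers BMP4 replicate 2 was the highest array in 7 of 7, against 5056 of all 19938 genes, so the 2 BMP4 pools stood at opposite ends. The 11 keratinocyte markers had near-level sums, 64324 and 63993 in noggin pools and 64546 and 63930 in BMP4 pools. They are among the brightest probe sets, which quantile normalization tends to hold level, so these sums do not show equal keratinocyte content. The part of any of the marker lists in the cadherin values was not tested.

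**Figure D4:**
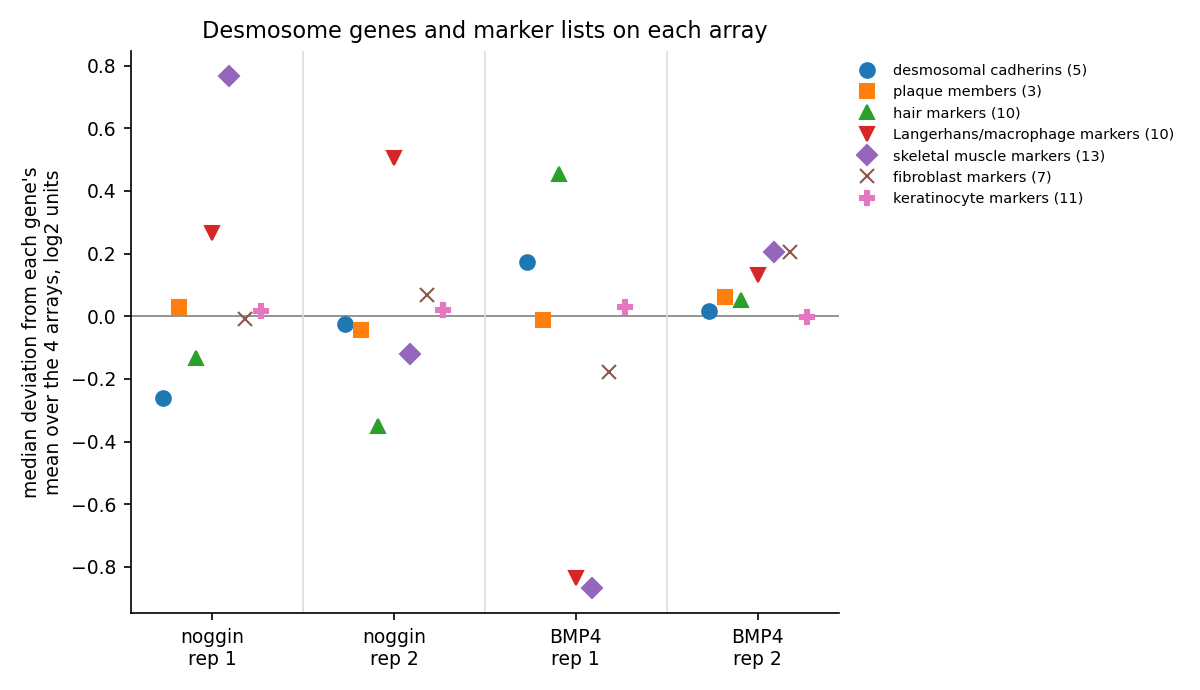
Median deviation of each gene from its mean over the 4 arrays, in log2 units (vertical axis), on each array (horizontal axis), for desmosomal cadherins, plaque genes and 5 marker lists, with the number of genes in brackets. The median of the 5 cadherins stands at -0.26 in noggin replicate 1 and 0.17 in BMP4 replicate 1. The hair markers lie on the same side of 0 in both of these arrays, though they were lowest in noggin replicate 2, at -0.35. Skeletal muscle markers, at 0.766 and -0.866, and Langerhans cell and macrophage markers, at 0.265 and -0.834, lie on the opposite side in both. Fibroblast markers stand at -0.01 and -0.178 and keratinocyte markers at 0.016 and 0.029. The medians of the 3 plaque genes lie between -0.04 and 0.06.

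Among 8 further genes of the desmosome and its cornified-layer form, the corneodesmosome, none passed the threshold over all probe sets. Cdsn, which encodes corneodesmosin, the adhesive protein secreted into corneodesmosomes, had the smallest p of the 16 genes. Its log2 values were 11.44 and 11.34 in noggin pools and 11.70 and 11.74 in BMP4 pools, so that the groups were separated by more than the spread within either. Noggin minus BMP4 came to -0.33 (95% interval -0.59 to -0.08, limma adjusted p = 0.848), a 1.26-fold higher mean in BMP4, and it ranged from -0.39 to -0.28 when 1 array was left out.

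Dsg4, the desmoglein of the hair shaft, had log2 values of 4.16 and 4.15 in noggin pools and 5.89 and 4.37 in BMP4 pools. Only BMP4 replicate 1 stood above the lower quartile of all probe sets, and detection is unknown for the other 3 arrays. Noggin minus BMP4 came to -0.97 (95% interval -2.45 to 0.51, limma adjusted p = 0.938), against -0.22 when BMP4 replicate 1 was left out and -1.73 when BMP4 replicate 2 was. Dsg4 also belongs to the list of hair markers, so its value is part of that list's pattern.

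The remaining 6 genes had differences between -0.07 and 0.16. Pkp3, a plakophilin of all living epidermal layers, had 8.83 and 8.57 in noggin pools and 8.56 and 8.77 in BMP4 pools, and the groups overlapped. Pkp2, the plakophilin of simple epithelia and heart, had 4.99 and 4.80 in noggin pools and 4.75 and 4.71 in BMP4 pools, values close to the lower quartile. The plakins Ppl and Evpl, which join the cornified envelope, had differences of 0.02 and 0.12, that of Ppl turning to -0.00732 under further quantile normalization and -0.00405 under cyclic loess. Perp, a p63 target needed for desmosome assembly, had 12.06 in both noggin pools and 12.03 and 11.99 in BMP4 pools, a difference of 0.04. Dsg1c had 5.38 and 5.21 in noggin pools and 5.40 and 5.33 in BMP4 pools. Adjusted p for these 6 genes lay between 0.946 and 1.0 (limma). Over the 8 further genes the median difference was 0.03, with 3 lower and 5 higher in noggin, Ppl being one of the 5. Leaving out noggin replicate 1 turned that median to -0.07, and leaving out BMP4 replicate 1 turned it to -0.05.

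The promoters of the plaque genes Dsp and Jup and of Cdsn are shown. Dsp varied least and Cdsn had the smallest p of the desmosome genes. No window was available for Pkp1, Pkp3, Perp, Ppl or Evpl, and promoters of the other desmosome genes, the cadherins among them, are not shown. The windows run from 250 bases before to 50 bases after an annotated RefSeq start on GRCm38.p6, and Cdsn has 2 such starts. They were searched on both strands for the GC box GGGCGG and for GGCGCC, a GC-rich element that BMP-activated SMAD proteins are known to bind. Matches of either are in capitals, and the 2 motifs shared no base.
Dsp, chr13:38151044-38151343, plus strand: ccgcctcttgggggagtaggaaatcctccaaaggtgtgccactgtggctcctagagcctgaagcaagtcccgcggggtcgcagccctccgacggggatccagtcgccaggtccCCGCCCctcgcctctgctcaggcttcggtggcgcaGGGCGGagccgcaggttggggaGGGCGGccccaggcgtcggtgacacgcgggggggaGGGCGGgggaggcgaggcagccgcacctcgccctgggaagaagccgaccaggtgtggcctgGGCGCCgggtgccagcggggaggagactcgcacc
Jup, chr11:100397741-100398040, minus strand: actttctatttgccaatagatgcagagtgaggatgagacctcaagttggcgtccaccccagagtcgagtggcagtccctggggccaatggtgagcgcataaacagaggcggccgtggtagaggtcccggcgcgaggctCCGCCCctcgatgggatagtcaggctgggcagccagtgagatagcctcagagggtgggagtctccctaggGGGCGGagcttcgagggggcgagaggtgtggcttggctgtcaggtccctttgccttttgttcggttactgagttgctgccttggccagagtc
Cdsn, first start, chr17:35542851-35543150, plus strand: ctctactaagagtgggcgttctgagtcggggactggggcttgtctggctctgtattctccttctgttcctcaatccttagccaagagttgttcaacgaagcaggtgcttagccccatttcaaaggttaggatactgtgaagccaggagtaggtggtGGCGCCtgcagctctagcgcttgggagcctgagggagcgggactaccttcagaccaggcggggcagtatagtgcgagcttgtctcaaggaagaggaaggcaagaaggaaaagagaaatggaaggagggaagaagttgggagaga
Cdsn, second start, chr17:35551878-35552177, plus strand: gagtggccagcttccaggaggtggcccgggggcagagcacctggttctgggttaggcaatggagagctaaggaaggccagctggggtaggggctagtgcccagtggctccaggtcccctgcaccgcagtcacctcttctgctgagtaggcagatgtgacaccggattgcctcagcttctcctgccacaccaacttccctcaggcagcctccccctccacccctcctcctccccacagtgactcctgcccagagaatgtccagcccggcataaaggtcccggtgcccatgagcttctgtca
Dsp held 4 GC boxes, Jup held 2 and neither Cdsn window held any, where 35.7% of 32851 RefSeq windows of this length hold at least 1. Dsp and the first Cdsn window each held 1 GGCGCC, and Jup and the second Cdsn window held 0, where 11.9% of all windows hold it. The AP-1 site TGANTCA, in 7.81% of all windows, the grainyhead-like site AACCNGTT, in 2.09%, and the TATA box TATAAA, in 13.6%, were in none of the 4. These matches are letters in a window and no measurement of binding.

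No gene of the desmosome's partner structures passed the threshold. Of 9 keratins that desmosomes anchor, the noggin mean was the lower one for 5, and the list's median was -0.02, or 0.04 without noggin replicate 2. Krt14, the basal keratin whose promoter drives the transgenes, had 12.25 in both noggin pools and 12.42 and 12.36 in BMP4 pools, a difference of -0.14 (limma, adjusted p = 0.940). Its partner Krt5 differed by -0.10 and the suprabasal Krt10 by 0.05. Over the 9 keratins the differences ran from -0.24 to 0.05.

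Of 11 adherens junction genes, the noggin mean was the lower one for 7, and the list's median was -0.05. In 3 of the 11 both noggin pools lay below both BMP4 pools and in 2 above, close to the 17.9% and 15.7% of all genes. Ctnnb1, which encodes beta-catenin, the close relative of plakoglobin, had 9.69 and 9.53 in noggin pools and 9.82 and 9.80 in BMP4 pools, a difference of -0.21 with an adjusted p of 0.931 in limma. Vcl, the actin-linking vinculin, differed by 0.30, and by 0.12 without BMP4 replicate 1 and 0.48 without BMP4 replicate 2. Ajuba, a junction-associated LIM protein, differed by -0.22, and by -0.13 without BMP4 replicate 2.

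Of 6 hemidesmosome genes, which fix basal cells to the basement membrane, the noggin mean was the lower one for 4. The list's median was -0.13 but 0.003 without noggin replicate 1. Itgb4 differed by -0.18, Col17a1 by -0.15 and Itga6 by 0.18, with limma's adjusted p between 0.934 and 0.951. The groups overlapped for 3 of the 6. Both noggin pools lay below both BMP4 pools for 2, Itgb4 and Col17a1, and above for 1, Itga6, the partner subunit of Itgb4. Over all genes 17.9% lay below in this way and 15.7% above. The Itga6 values were 10.28 and 10.59 in noggin pools and 10.24 and 10.27 in BMP4 pools, and without noggin replicate 2 the difference was 0.03.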

How the data were processed

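Biotin-labelled RNA of laser-captured epidermis, amplified by the NuGEN pico protocol per the labels' protocols, was measured on 4 whole-transcript arrays. The authors deposited log2 intensities, 1 per probe set, made with Affymetrix Expression Console and RMA per the submitters' processing notes, with no version or setting given. RMA corrects background, quantile-normalizes and summarizes probes, which removes overall signal differences between arrays and compresses changes of dim probe sets. Detection above background is unknown, and the number of arrays limits the precision.

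Of 35556 probe sets, 21789 carry 1 gene symbol in the platform table, 1621 several, and 12146 are unnamed here. The brightest probe set stood for a gene. Noggin minus BMP4 was estimated by lmFit and eBayes of limma 3.58.1 (R 4.3.3) with group only, two-sided, with 2 residual and 2.08 prior degrees of freedom, adjusted over all probe sets at 0.05. The members and lists were chosen with earlier results of these data known. Named genes were the 10 members, the 8 further desmosome genes and, of each other list, at most the 3 genes with the smallest p. Of 12 keratinocyte, 11 hair, 11 desquamation, 12 transcription factor, 8 T cell and 8 fibroblast genes listed, 11, 10, 10, 11, 7 and 7 were measured. The fit was tested on simulated data with planted shifts larger than any member's difference. That test does not show whether differences of the members' size would be found. The labels do not say that a replicate number marks a shared litter or day. Alternatives were a replicate block, an intensity trend or a robust prior, leaving out dim probe sets, median centring, quantile normalization, cyclic loess, the mean of a gene's probe sets, a threshold of 0.1 and leaving out each array. Promoter windows came from RefSeq. The plots used matplotlib 3.10.9 and Python 3.11.15.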

Additional observations from a re-analysis of the deposited data

How the results depend on the processing

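Under the alternatives run, 0 of 35556 probe sets and 0 of the 8 measured members passed in limma. At an adjusted p of 0.1, 0 probe sets passed with all 4 arrays, and the smallest adjusted p was 0.0954 without BMP4 replicate 2. At an unadjusted p below 0.05 the count of probe sets or genes lay between 1163 and 2455, against 1994, and of the 8 members 1, Dsc2, lay below it without BMP4 replicate 2 (limma, unadjusted p = 0.0105, adjusted p = 0.553) and 0 in the other fits. With the replicate block 1736 probe sets lay below that level. That block is balanced over the lines, so it leaves each difference, and the members' median of -0.091, unchanged by construction. The deviations of same-numbered arrays correlated at -0.12, and with the crossed pairing as a block, chosen after seeing the data, 0 passed and 2441 lay below that level. The members' median difference ranged from -0.149 to -0.106 when 1 array was left out. The upper minus lower score was between 0.041 and 0.444 in those fits. Some differences changed sign. Under further quantile normalization and cyclic loess Pkp1 was -0.000425 and -0.00104, and Ppl -0.00732 and -0.00405. With 1 array left out, differences ranged over -0.227 to 0.00575 for Dsg1b, -0.296 to 0.151 for Dsg2, -0.0512 to 0.0887 for Pkp1, -0.161 to 0.014 for Dsg1c, -0.0983 to 0.17 for Pkp3, -0.1 to 0.132 for Ppl, -0.309 to 0.135 for Dcn, -0.368 to 0.763 for Lum and -0.0247 to 0.213 for Pdgfra. The cause of these sign changes was not tested. The signs of Dsg3, Dsc2, Dsc3, Dsp, Jup and Cdsn held in all alternatives, though Jup came to -0.00105 without noggin replicate 2. For the rest of these genes both noggin pools lay below both BMP4 pools, so leaving out 1 array could not turn the sign. The replicate block, intensity trend, robust prior, dim probe set and mean of probe sets alternatives left their differences unchanged by construction. A fit without 1 array assumes that the lone array varies like the others.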

Other observations

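Proteases that cut corneodesmosomes, and their inhibitors, were read alongside the junction genes. Of 10 measured genes, the noggin mean was the higher one for 7, the list's median was 0.08, and none passed over all probe sets. Leaving out noggin replicate 1 turned that median to -0.017, leaving out BMP4 replicate 1 to -0.002, and it was 0.17 when noggin replicate 2 was dropped. Klk6, a kallikrein protease, had log2 values of 6.62 and 6.76 in noggin pools and 5.97 and 6.05 in BMP4 pools, a 1.61-fold higher mean in noggin (limma, unadjusted p = 0.00228, adjusted p = 0.701). Klk7, the stratum corneum chymotryptic enzyme that degrades corneodesmosin, had 11.64 and 11.60 in noggin pools and 11.06 and 11.45 in BMP4 pools, a difference of 0.37 that was 0.17 without BMP4 replicate 1. Klk14 differed by -0.38, and by -0.12 without BMP4 replicate 1. Cdsn, the substrate, lay on the BMP4 side at -0.33, and no test linked these genes.

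Among 11 measured transcription factors of epidermal junction genes, the noggin mean was the lower one for 5 and the higher one for 6, and the list's median was 0.03, or -0.04 when noggin replicate 1 was left out and -0.015 when noggin replicate 2 was. Ovol1 differed by -0.13, Cebpa by 0.14 and Tfap2c by -0.11, and all 3 had a limma adjusted p of at least 0.947. Of the other marker lists, 6 of 10 simple epithelium and sweat gland markers, 7 of 7 T cell markers, 5 of 7 endothelial markers, 5 of 7 melanocyte markers and 2 of 6 Merkel cell markers averaged higher in noggin. Their median differences were 0.10, 0.17, 0.11, 0.06 and -0.05 in that order. All but the T cell median changed sign with 1 array left out. Without noggin replicate 1 the simple epithelium median was -0.03 and the endothelial one -0.005, without BMP4 replicate 1 the melanocyte median was -0.03, and without noggin replicate 2 the Merkel cell median was 0.06. Within the simple epithelium list, Krt7 differed by -0.31, and Atp1b1 by 1.24 but by 0.22 without noggin replicate 1.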
